A study of Mus musculus with 4 samples.

Results

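The transcripts described here encode the cytosolic translation initiation and elongation factors, 58 of the 25437 gene names in the deposited tables. They were chosen by symbol alone, as every name that starts with Eif1 to Eif6, Eef1 or Eef2, leaving out the eIF4E-binding proteins Eif4ebp1 to Eif4ebp3, the X- and Y-linked genes Eif1ax, Eif1ay, Eif2s3x and Eif2s3y, and pseudogene names. All 58 are listed in the E5.5 library and 56 in each of the other 3. Among them, 3 names stay near 0 everywhere: Eif4e1b with at most 1 molecule (UMI) in any lineage, Eif2c5 with at most 5 and Eef1a2 with at most 14. Eif2c5 is an older Argonaute name that the symbol pattern takes in.

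Initiation factors bring the initiator tRNA and the small ribosomal subunit to the capped end of an mRNA. eIF2 carries the tRNA, eIF3 is the large scaffold on the small subunit, and the eIF4 group binds the cap and unwinds the leader. Elongation factors then deliver aminoacyl-tRNA (eEF1) and move the ribosome along (eEF2). Cells hold translation back through kinases that phosphorylate eIF2 and eEF2, and a blastocyst in diapause is a classic case of an embryo with low protein synthesis.

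The values come from 4 single-cell libraries of wildtype whole B6C3F1/J mouse embryos, with 1 library for each stage label. EDG7.5, EDG9.5 and Reactivated hold 200 to 250 flushed blastocysts each, and Reactivated is labelled as EDG9.5 followed by 30 h with E2. The series title names embryonic diapause, and EDG7.5 and EDG9.5 are called the diapause libraries here. E5.5 holds 50 embryos taken out of implantation sites with forceps. E4.5, also named in the design, is not analysed here. All embryos of a library were pooled and dissociated with TrypLE before capture on BD Rhapsody, so library and stage cannot be told apart, no difference has a replicate check, and every interval is a 95% interval that covers counting error only.

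After filtering, 1658 cells remained in EDG7.5 and 2452 in EDG9.5, then 672 in Reactivated and 9262 in E5.5. Their median depths were 5104, 3816.5, 13161 and 8724.5 UMIs in that order, so the Reactivated cells were the deepest. Clusters were named epiblast, endoderm or trophoblast from marker lists. In the class of its own name, each list had 10 or 11 of 11 epiblast, 13 or 14 of 14 endoderm and 8 to 14 of 15 trophoblast markers at 20 CPM (a gene's UMIs per 1000000 UMIs of the class) or more. Lists for other cells summed to at most 57.1 CPM for decidual stroma, 283 for uterine epithelium, 233 for immune cells, 1.17 for erythroid cells and 264 for endothelium in any class. The 4 libraries shared 1 to 27 barcodes in any pair. CPM are shares of RNA, so fewer transcripts of a gene per cell and more RNA of other genes cannot be told apart.

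The promoters of the closely related helicase genes Eif4a1 and Eif4a2 are shown because this pair moved in opposite directions below. RefSeq promoters on GRCm38.p6 were found for 46 of the 58 genes, 61 promoters in all. In the 250 bases before the start, an E-box (CACGTG, its own reverse complement) occurred in 13 of the 61, or 21.3%, against 6.02% of all 32851 promoters. The letters CCGGAAG or CTTCCGG, an ETS-type site, occurred in 10 of the 61, or 16.4%, against 6.91% of all. CCAAT or ATTGG occurred in 15 of the 61, or 24.6%, against 33.8% of all. Motif matches are descriptions of letters and not binding sites. The Eif4a1 stretch is chr11:69672424-69672673 on the minus strand and the Eif4a2 stretch chr16:23107218-23107467 on the plus strand, both written 5′ to 3′ with E-box and CCAAT letters in capitals. Eif4a1 has an E-box and CCAAT, and Eif4a2 has none of the 3 motifs in this window.
Eif4a1: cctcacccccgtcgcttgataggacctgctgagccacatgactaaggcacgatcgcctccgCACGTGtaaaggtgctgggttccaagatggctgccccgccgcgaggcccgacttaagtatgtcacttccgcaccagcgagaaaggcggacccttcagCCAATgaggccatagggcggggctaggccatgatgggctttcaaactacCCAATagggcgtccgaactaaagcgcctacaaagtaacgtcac
Eif4a2: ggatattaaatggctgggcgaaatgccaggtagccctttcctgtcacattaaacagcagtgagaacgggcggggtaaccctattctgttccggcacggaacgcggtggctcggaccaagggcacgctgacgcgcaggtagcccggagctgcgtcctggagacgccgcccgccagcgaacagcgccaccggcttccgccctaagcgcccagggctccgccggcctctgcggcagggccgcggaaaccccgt

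Together the 58 transcripts took 1.63% of all UMIs of the epiblast in EDG7.5 and 1.80% in EDG9.5, then 2.30% in Reactivated and 2.59% in E5.5. In trophoblast the shares were 1.51%, 1.77%, 2.15% and 2.71% in the same order of libraries. Epiblast and trophoblast thus had their lowest share in EDG7.5 and their highest in E5.5. In endoderm the shares stayed between 1.87% and 2.05%, with 1.97% in Reactivated and 1.93% in E5.5. Over single epiblast cells the median share was 2.29% in Reactivated, with the 5th to 95th percentile from 1.90% to 2.58%, against a median of 1.78% in EDG9.5 with percentiles from 1.23% to 2.32%, so the cells of both libraries overlap. Per cell, the mean number of factor UMIs in epiblast was 287 in Reactivated and 77.1 in EDG9.5, where the mean of all UMIs per cell was 12500 and 4274.

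**Figure D1:**
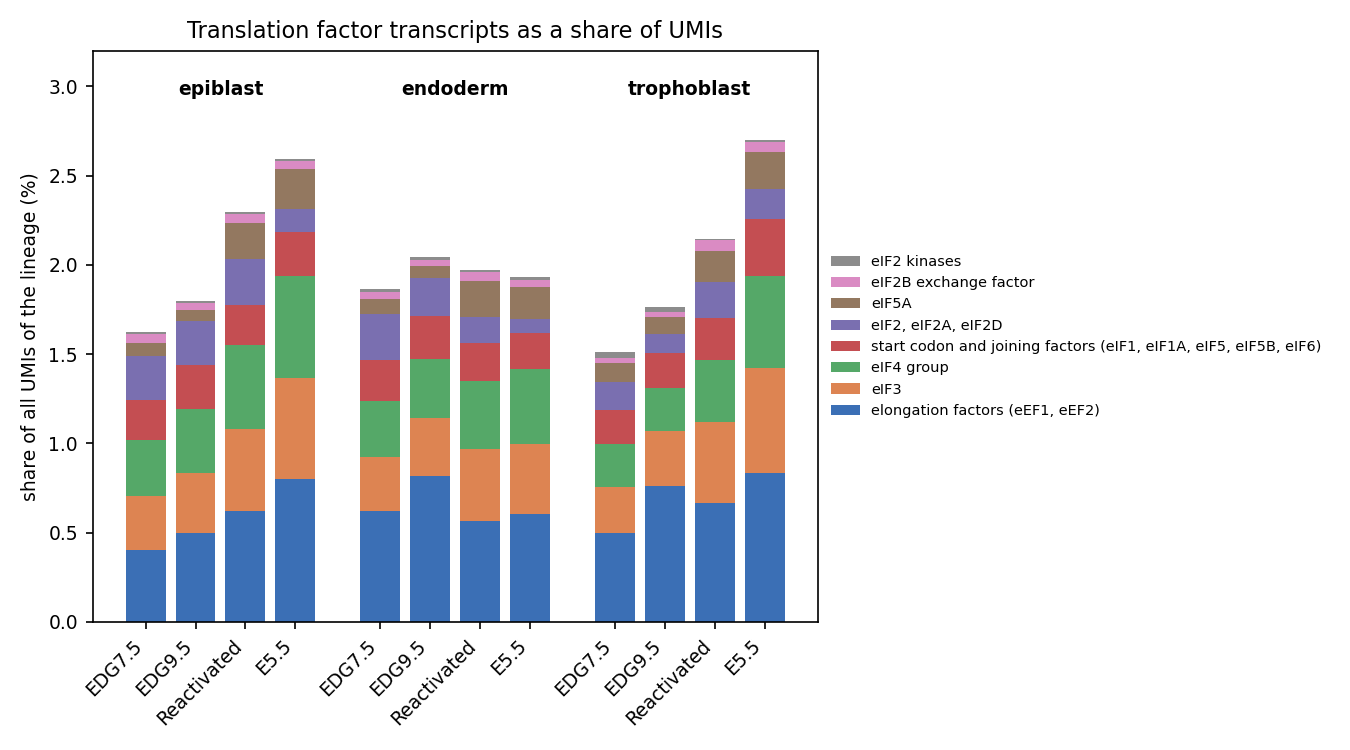
Share of all UMIs (%, vertical axis) taken by translation factor transcripts in each lineage and library, stacked by role; Eef2k and Eif2c5 are too low to draw and are left out. Epiblast and trophoblast bars rise along the 4 libraries to 2.59% and 2.71% in E5.5, while endoderm bars stay between 1.87% and 2.05%.

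A gene was called higher or lower when its level with 10 CPM added differed at least 1.5-fold, if the 2 sums together held 50 UMIs of it or more, and such genes are called measured. The question in the first comparison was whether the factors differed between the later and the earlier diapause label. Of 53 factors measured in epiblast, 1 rose in EDG9.5 over EDG7.5 and 0 fell, where 0.966% of all genes rose and 1.3% fell. In endoderm 0 of 54 rose and 0 fell, where 1.3% of all genes rose and 1.25% fell. In trophoblast 3 of 52 rose and 1 fell, where 1.53% of all genes rose and 1.48% fell. The factors' median log2 ratio was 0.08, -0.02 and 0.04 in epiblast, endoderm and trophoblast, against -0.03 over all genes in each. The 2 diapause libraries were thus close by this median, which weighs each factor alike. Sums differed more. The 9 factors known for a 5′ oligopyrimidine tract summed to 6074 CPM in EDG9.5 and 4923 in EDG7.5 epiblast. These sums were 9163 and 7029 in endoderm, and 8833 and 5885 in trophoblast. Sums of the eIF2 (with Eif2a and Eif2d), eIF2B and eIF5A names were lower in EDG9.5 in each lineage. Of 51 factors measured in all 3 lineages, 0 rose and 0 fell in each of them, where 0.0662% of all genes rose and 0.106% fell.

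The calls between EDG9.5 and EDG7.5 fell on 5 factors, and 4 of the 5 were lost under some other setting at the same 1.5-fold limit. Eif4a2, a helicase of the eIF4F complex, rose in epiblast to 762 CPM in EDG9.5, against 490 CPM in EDG7.5. Its log2 ratio was 0.63, and 0.51 with cells thinned to 1000 UMIs, which is under the call (a log2 ratio of 0.585). In trophoblast Eef1b2, an exchange factor for eEF1A, rose to 2868 CPM in EDG9.5, against 1800 in EDG7.5, and Eif4b, a helicase cofactor, rose to 170 CPM in EDG9.5, against 110 in EDG7.5. The Eif4b log2 ratio was 0.59, and lay from 0.46 to 0.58, with no call, under 5 alternatives. Eef1a1, which carries aminoacyl-tRNA to the ribosome, rose in trophoblast to 2552 CPM in EDG9.5, against 1666 in EDG7.5. This log2 ratio was 0.61, but 0.53 with a mitochondrial limit of 10% and 0.56 without cluster 3 of EDG7.5, neither of them a call. Eif2s2, the beta subunit of eIF2, fell in trophoblast to 874 CPM in EDG9.5, against 1345 in EDG7.5. With TMM scaling (edgeR's factors), or without ribosomal protein and mitochondrially encoded genes in the totals, this fall no longer reached 1.5-fold. In endoderm the highest ratio was that of Eif2ak2, the kinase PKR that senses double-stranded RNA, at 14.6 CPM in EDG9.5 and 7.37 in EDG7.5. This was no call, though it was one with 1 CPM added. Ribosomal protein transcripts, a list of 90, had a median log2 ratio of 0.22 in epiblast, 0.38 in endoderm and 0.55 in trophoblast, where 33 of 86 measured rose and 0 fell, against 1.53% and 1.48% of all genes.

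Reactivated over EDG9.5 asks what differed after 30 h with E2, and here many factors changed. In epiblast 22 of 53 measured factors (41.5%) rose and 8 fell (15.1%), where 19.4% of all genes rose and 36.8% fell. In endoderm 14 of 54 (25.9%) rose and 6 fell (11.1%), where 16.9% of all genes rose and 28.8% fell. In trophoblast 27 of 53 (50.9%) rose and 5 fell (9.43%), where 23.6% of all genes rose and 28.2% fell. In each lineage the share that rose was above, and the share that fell below, that of all genes, though levels were not matched between them.

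The factors' median log2 ratio for Reactivated over EDG9.5 was 0.36 in epiblast, 0.29 in endoderm and 0.61 in trophoblast. Over all genes the medians were -0.25, -0.19 and -0.09, which leaves the factors 0.62, 0.47 and 0.70 above them. This gap was 0.58, 0.40 and 0.64 among genes with at least 200 UMIs, and 0.41, 0.30 and 0.54 with 50 CPM added. TMM factors move the all-gene medians to -0.01, -0.02 and -0.04, and the factors then stand 0.68, 0.52 and 0.72 above. With TMM the calls were 28 higher and 5 lower in epiblast, 24 higher and 3 lower in endoderm, and 30 higher and 5 lower in trophoblast. The group's place above all genes is thus similar under either scaling, while the number of endoderm calls depends on it. Ribosomal protein transcripts had medians of 0.31, -0.23 and -0.03 in epiblast, endoderm and trophoblast, so they did not follow the factors in the last 2 lineages.

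Of 52 factors measured in all 3 lineages, 12 rose in all of them in Reactivated over EDG9.5, where 8.59% of all genes did so: Eef1d, Eif2s1, Eif3b, Eif3d, Eif3i, Eif3j1, Eif3k, Eif3l, Eif4a3, Eif4e, Eif4e2 and Eif5a. TMM scaling left all 12 called in the 3 lineages. The 3 that fell in all lineages, as 13.1% of all genes did, were Eef1a1, Eif2ak4 and Eif4a2, of which TMM left Eif4a2 alone called in every lineage. Eif3d and Eif3j1 share over 10% of their exon bases with another annotated gene, and with no strand setting given their reads cannot be told apart from it. Several other genes also overlap Eif4a2 exons, each by at most 3.63% of its exon bases, and Eif4a1 exons, each by at most 3.32%. What this adds to the levels of the pair was not tested.

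**Figure D2:**
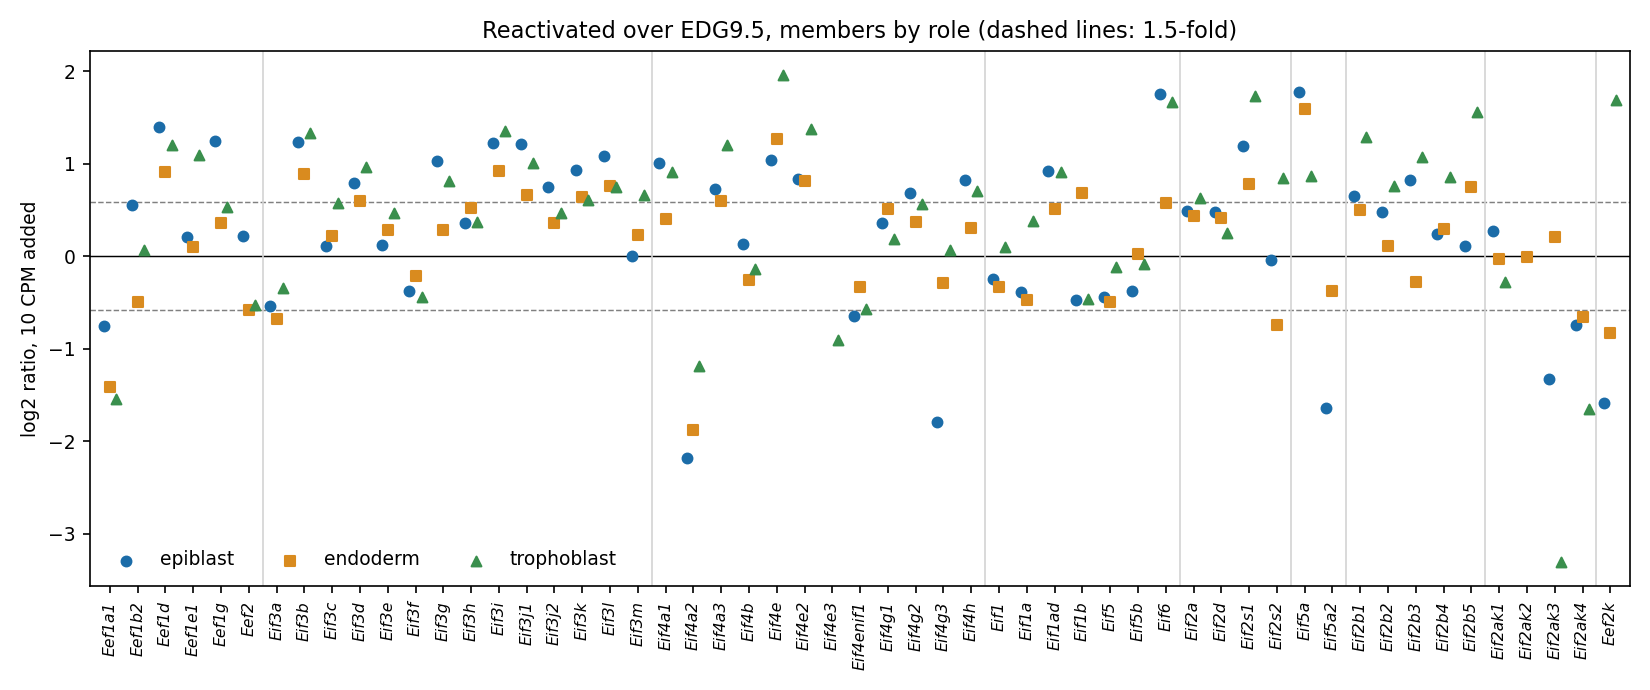
Log2 ratio of Reactivated over EDG9.5 (vertical axis, 10 CPM added) for each measured factor, grouped by role from elongation factors at the left to eIF2 kinases and Eef2k at the right; circles are epiblast, squares endoderm and triangles trophoblast. Most eIF3 points lie above 0, while Eif4a2, Eef1a1, Eif2ak4 and, at -3.31 in trophoblast, Eif2ak3 lie below.

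The balance of the eIF4A helicase pair shifted toward Eif4a1 in Reactivated and E5.5. Eif4a1, the main unwinding enzyme of eIF4F in growing cells, stood at 681 CPM in EDG7.5 and 778 in EDG9.5, then 1578 in Reactivated and 1616 in E5.5 epiblast. Eif4a2, its close paralog, stood at 490, 762, 160 and 268 CPM in the same order. Eif4a1 was thus high in the last 2 libraries and Eif4a2 in the first 2. In Reactivated over EDG9.5, Eif4a1 was 2.03-fold higher in epiblast (1.92 to 2.14) and Eif4a2 4.75-fold lower (4.27 to 5.29). In trophoblast Eif4a1 was 1.90-fold higher (1.78 to 2.01) and Eif4a2 2.35-fold lower (2.08 to 2.66). In endoderm Eif4a2 was 3.86-fold lower (3.54 to 4.22), while the Eif4a1 ratio of 1.33 (1.26 to 1.39) did not reach the 1.5-fold call, though it did with TMM.

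As a share of the pair's UMIs, which no scaling of the sums alters, Eif4a1 took 58.1% in EDG7.5 and 50.5% in EDG9.5, then 90.8% in Reactivated and 85.8% in E5.5 epiblast. In endoderm the shares were 60.2%, 56.7%, 87.0% and 84.7%, and in trophoblast 66.1%, 57.6%, 85.8% and 86.1%. All 6 diapause values lie between 50.5% and 66.1% and the other 6 between 84.7% and 90.8%, so they do not overlap. How many other gene pairs separate in this way was not counted. Eif4a2 was lower also as UMIs per cell in the deeper Reactivated epiblast cells, at 2.005 against 3.26 in EDG9.5, whereas Eif4a1 had 19.7 in Reactivated and 3.33 in EDG9.5. In endoderm, per-cell Eif4a2 was 2.22 in Reactivated and 2.30 in EDG9.5, and in trophoblast it was 1.97 in Reactivated and 1.79 in EDG9.5.

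**Figure D3:**
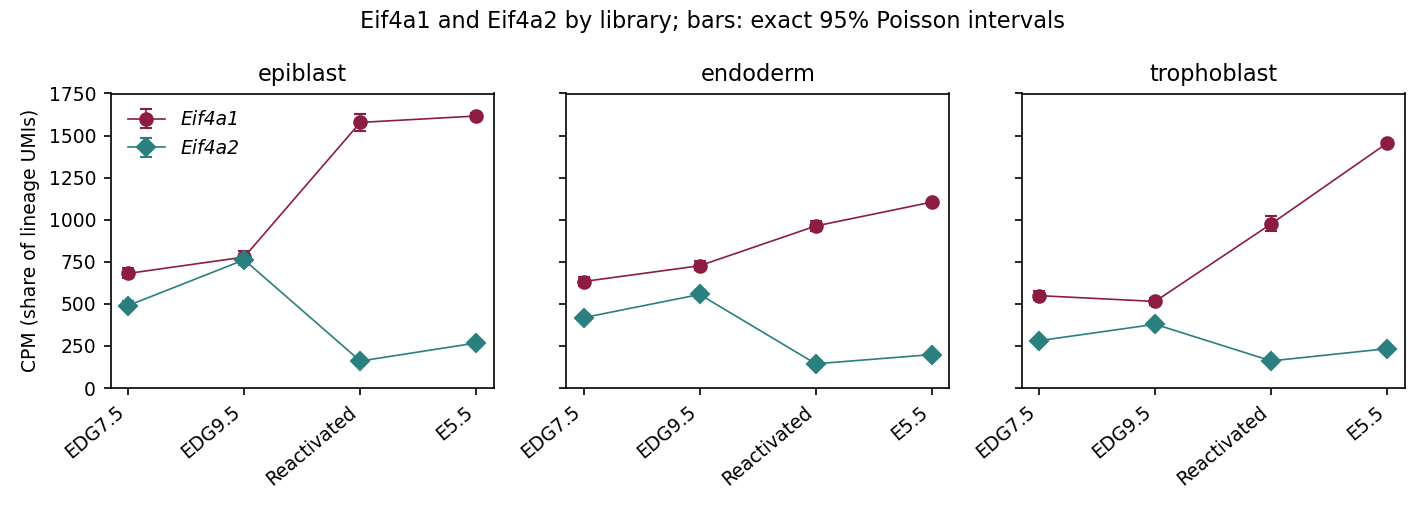
Eif4a1 (circles) and Eif4a2 (diamonds) in CPM (vertical axis) in the 4 libraries of each lineage, with exact 95% Poisson intervals that cover counting error only. The curves part in Reactivated, where epiblast has 1578 CPM of Eif4a1 and 160 of Eif4a2.

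Of the eIF4 names, Eif4a1 and Eif4a2 included, 6 of 11 measured rose and 3 fell in Reactivated over EDG9.5 epiblast, where 19.4% of all genes rose and 36.8% fell. In endoderm 3 of 11 rose and 1 fell, where 16.9% of all genes rose and 28.8% fell, and in trophoblast 5 of 12 rose and 2 fell, where 23.6% rose and 28.2% fell. Eif4e, which binds the cap, had 65.7 CPM in EDG7.5 and 48.7 in EDG9.5, then 218 in Reactivated and 310 in E5.5 trophoblast. It was 4.48-fold higher in Reactivated than in EDG9.5 trophoblast (3.80 to 5.29), 2.59-fold in endoderm and 2.17-fold in epiblast. Eif4e2, a cap-binding protein known for repression, also rose in all 3 lineages. Of the Eif4e set of paralogs, Eif4e took 32.1% of EDG9.5, 46.0% of Reactivated and 58.0% of E5.5 trophoblast UMIs. The exon junction helicase Eif4a3 rose in every lineage, and the helicase cofactor Eif4h in epiblast and trophoblast.

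The scaffold paralogs of the group moved differently in epiblast. Eif4g3 stood there at 122 CPM in EDG7.5 and 133 in EDG9.5, then 31.2 in Reactivated and 117 in E5.5, so Reactivated alone was low. It was 4.24-fold lower in Reactivated than in EDG9.5 (3.32 to 5.49). Eif4g2, also called DAP5, rose in epiblast, at 935 CPM in Reactivated against 580 in EDG9.5, and Eif4g1, the scaffold that joins the cap to the ribosome, had 506 CPM in Reactivated and 391 in EDG9.5, which was a call with TMM but not as reported. Eif4g3 in endoderm was 94.5 CPM in Reactivated and 118 in EDG9.5, and in trophoblast 73.3 in Reactivated and 69.6 in EDG9.5, neither of them called. Eif4enif1, which carries eIF4E into the nucleus, fell in epiblast to 44.9 CPM in Reactivated, against 75.9 in EDG9.5, a call that TMM removes.

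Of the 14 eIF3 names, 8 rose in Reactivated over EDG9.5 in epiblast, 6 in endoderm and 8 in trophoblast, where 19.4%, 16.9% and 23.6% of all genes rose. Eif3a alone fell, in endoderm, to 430 CPM in Reactivated against 694 in EDG9.5, and with TMM that call is lost. The core subunits Eif3b and Eif3i led the rise. Eif3i had 167 CPM in EDG7.5 and 166 in EDG9.5, then 402 in Reactivated and 451 in E5.5 epiblast, and in trophoblast 211, 238, 620 and 551. It was 2.61-fold higher in Reactivated than in EDG9.5 trophoblast (2.40 to 2.84), and Eif3b 2.62-fold (2.36 to 2.92). The subunits Eif3e and Eif3f, by contrast, were called in no lineage in this comparison. The eIF3 names summed to 4503 CPM in Reactivated and 3051 in EDG9.5 trophoblast. Eif3j1 and Eif3j2 are near-identical copies, so the split of their reads is uncertain.

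Eif5a encodes eIF5A, the hypusine-bearing factor that helps the ribosome through difficult peptide bonds. In epiblast it stood at 689 CPM in EDG7.5 and 582 in EDG9.5, then 2016 in Reactivated and 2213 in E5.5. In endoderm it stood at 860, 654, 1997 and 1807 CPM, and in trophoblast at 1092, 931, 1706 and 2083 CPM. Every Reactivated and E5.5 value was above every diapause value, and how many of all genes separate in this way was not counted. The Reactivated ratio to EDG9.5 was 3.46 in epiblast (3.27 to 3.67), 3.05 in endoderm (2.92 to 3.19) and 1.83 in trophoblast (1.75 to 1.92).

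Its paralog Eif5a2 was low, with 3 UMIs in Reactivated epiblast and 63 in EDG9.5. That is a 21.2-fold lower share with an interval from 6.92 to 105, since 3 UMIs fix little. Dohh, which completes hypusine on eIF5A, rose in all 3 lineages, with 104 CPM in Reactivated and 31.9 in EDG9.5 epiblast.

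Among start codon and joining factors, Eif6, which keeps the large subunit apart from the small, rose 3.65-fold in Reactivated over EDG9.5 epiblast (3.13 to 4.26) and 3.42-fold in trophoblast (3.02 to 3.89). Its level in epiblast was 107 CPM in EDG7.5 and 84.5 in EDG9.5, then 308 in Reactivated and 211 in E5.5. In endoderm Eif6 had 193 CPM in Reactivated and 126 in EDG9.5, just short of a call that TMM makes. Eif1, Eif1a, Eif5 and Eif5b, which scan for the start codon and join the subunits, were called in no lineage in Reactivated over EDG9.5. Of the same role group, Eif1ad rose in epiblast (log2 ratio 0.92) and trophoblast (0.91), and Eif1b in endoderm (0.68). Exons of another gene overlap 15.3% of the Eif1ad and 12.7% of the Eif1b exon bases, so their reads are uncertain.

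eIF2 and its exchange factor differed by subunit. Eif2s1, the alpha subunit that the kinases phosphorylate, had 121 CPM in EDG7.5 and 104 in EDG9.5, then 251 in Reactivated and 312 in E5.5 epiblast. In Reactivated over EDG9.5 it was 2.41-fold higher in epiblast, 1.79-fold in endoderm and 3.60-fold in trophoblast (3.15 to 4.12). Eif2s2, the beta subunit, stood in epiblast at 2268, 2201, 2141 and 681 CPM along the 4 libraries. Its endoderm levels were 2329, 1946, 1156 and 415 CPM and its trophoblast levels 1345, 874, 1582 and 1071 CPM. It was low in E5.5 epiblast and endoderm, and in Reactivated it fell in endoderm and rose in trophoblast. TMM removes the endoderm fall from the calls. All 5 eIF2B subunits rose in Reactivated trophoblast, where 23.6% of all genes rose, led by the catalytic Eif2b5 with 174 CPM in Reactivated and 52.5 in EDG9.5. Of the same 5, Eif2b1 and Eif2b3 alone rose in epiblast and Eif2b5 alone in endoderm, where 19.4% and 16.9% of all genes rose.

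Of the eIF2 kinases, 2 of 3 measured fell in Reactivated over EDG9.5 epiblast, 1 of 4 in endoderm and 2 of 3 in trophoblast, where 36.8%, 28.8% and 28.2% of all genes fell, and 0 rose. Eif2ak3, or PERK, which senses stress in the endoplasmic reticulum, stood in trophoblast at 189 CPM in EDG7.5 and 188 in EDG9.5, then 10.0 in Reactivated and 7.42 in E5.5. It had 20 UMIs in Reactivated trophoblast and 847 in EDG9.5, an 18.7-fold lower share (12.1 to 30.8). Its epiblast levels were 46.2, 42.5, 10.9 and 9.70 CPM along the libraries and its endoderm levels 38.7, 36.2, 43.4 and 19.5 CPM. The trophoblast level in diapause was thus well above that of the other lineages, and in Reactivated the endoderm was highest. The log2 ratio in trophoblast was -3.31, and with cells thinned to 1000 UMIs it was -2.39.

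Eif2ak4, or GCN2, which senses lack of amino acids, fell in trophoblast to 13.1 CPM in Reactivated, against 62.7 in EDG9.5, and Eif2ak1, the heme-regulated kinase, was called in no lineage in that comparison, with 65.6 CPM in Reactivated and 52.7 in EDG9.5 epiblast. Eif2ak2 was measured in endoderm alone, at 14.5 CPM in Reactivated and 14.6 in EDG9.5. Eef2k, the kinase that switches off eEF2, was 36.4 CPM in EDG7.5 and 38.9 in EDG9.5, then 6.24 in Reactivated and 13.2 in E5.5 epiblast. In trophoblast it was 4.54, 5.56, 40.2 and 53.4 CPM. Reactivated and E5.5 were thus low in epiblast and high in trophoblast. In endoderm Eef2k fell to 9.41 CPM in Reactivated, against 24.5 in EDG9.5. It was 6.23-fold lower in Reactivated than in EDG9.5 epiblast (3.66 to 11.3) and 7.23-fold higher in trophoblast (4.56 to 11.8).

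**Figure D4:**
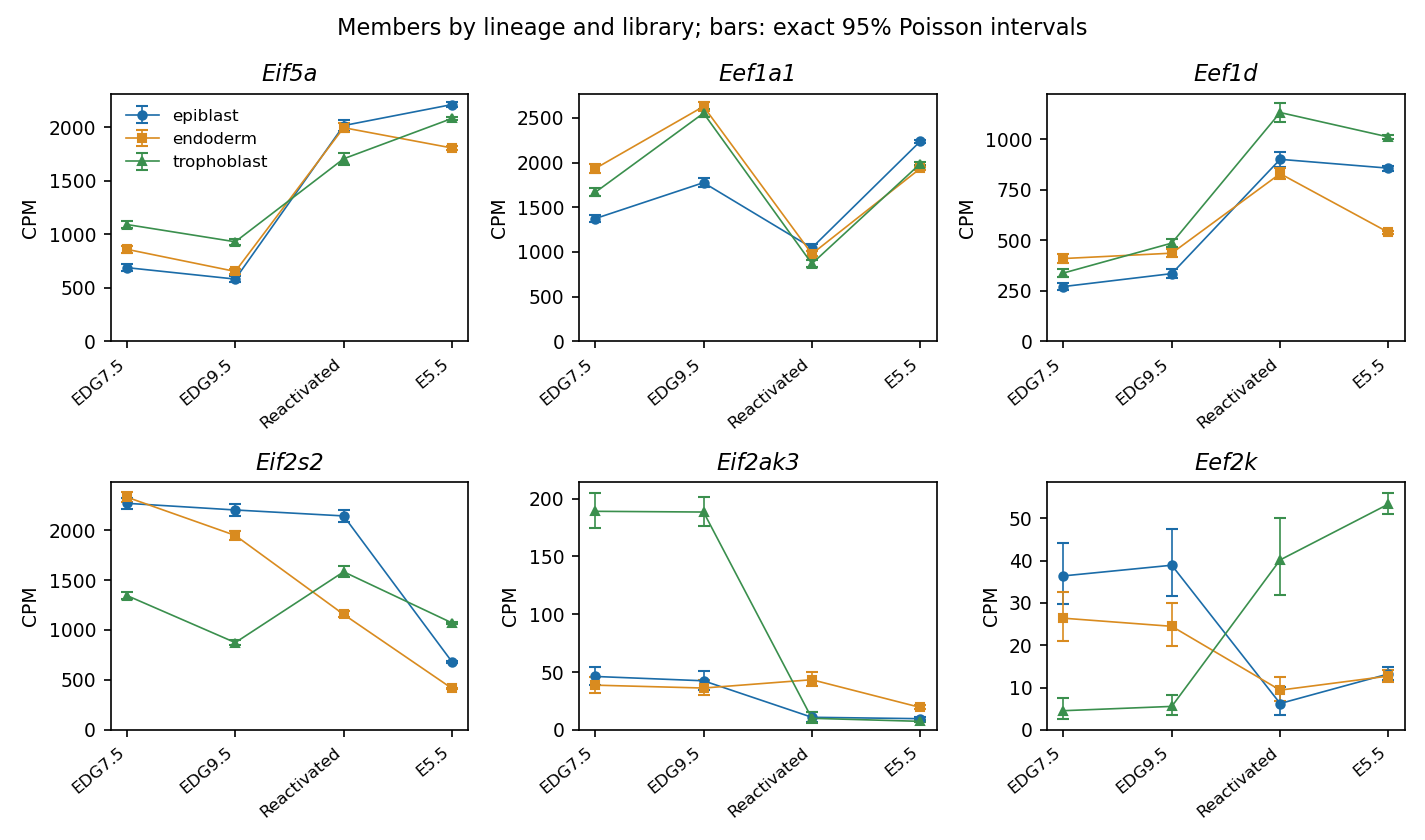
Levels in CPM (vertical axes, each from 0) of Eif5a, Eef1a1, Eef1d, Eif2s2, Eif2ak3 and Eef2k in the 4 libraries, with circles for epiblast, squares for endoderm and triangles for trophoblast and exact 95% Poisson intervals for counting error only. Eef1a1 is lowest in Reactivated in every lineage, and Eif2ak3 is high in trophoblast of EDG7.5 and EDG9.5 alone.

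The elongation factors split. Eef1d, a subunit of the eEF1B exchange complex, had 271 CPM in EDG7.5 and 335 in EDG9.5, then 901 in Reactivated and 857 in E5.5 epiblast, and was 2.69-fold higher in Reactivated than in EDG9.5 (2.48 to 2.91). Eef1g, of the same complex, rose in epiblast to 733 CPM in Reactivated, against 303 in EDG9.5. Eef1a1, their partner, stood in epiblast at 1373, 1775, 1046 and 2237 CPM along the 4 libraries. Its endoderm levels were 1932, 2627, 978 and 1934 CPM and its trophoblast levels 1666, 2552, 869 and 1986 CPM. In each lineage Reactivated was the lowest of the 4. Eef1a1 was 1.70-fold lower in Reactivated than in EDG9.5 epiblast (1.62 to 1.78), 2.69-fold in endoderm and 2.94-fold in trophoblast; with TMM the epiblast log2 ratio of -0.76 becomes -0.44 and is no call. The genome holds processed copies of Eef1a1, and how the counting treated reads that fit several places is not given, so its level is uncertain. Eef2 had 841 CPM in Reactivated and 724 in EDG9.5 epiblast, 995 in Reactivated and 1496 in EDG9.5 endoderm, and 816 in Reactivated and 1179 in EDG9.5 trophoblast, with no call. Transcripts known for a 5′ oligopyrimidine tract number 9 among the factors, and their median log2 ratio was 0.21, -0.22 and 0.07 in epiblast, endoderm and trophoblast.

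E5.5 over Reactivated sets implanted embryos against reactivated blastocysts. It shares the Reactivated library with the comparison above, so a value that is high or low in that library moves both in opposite directions. In epiblast 13 of 55 measured factors rose and 3 fell, where 15.6% of all genes rose and 11.9% fell. In endoderm 2 of 54 rose and 4 fell, where 10.9% rose and 8.36% fell, and in trophoblast 15 of 55 rose and 0 fell, where 20.5% rose and 8.77% fell. The factors' medians were 0.23, -0.00 and 0.34 in epiblast, endoderm and trophoblast, against 0.13, 0.07 and 0.19 over all genes. With TMM, which brings the all-gene medians to 0.02, 0.01 and 0.03, the factors' medians were 0.05, -0.11 and 0.07, and the calls were 6 higher and 5 lower in epiblast, 2 higher and 5 lower in endoderm, and 7 higher and 3 lower in trophoblast. Under both scalings the factors' median was above that of all genes in epiblast and trophoblast, by less with TMM, and below it in endoderm.

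Eef1a1 was the only factor that rose in all 3 lineages of E5.5, of 54 measured in each, where 2.21% of all genes did so, and TMM kept it. In all 3 lineages 0 factors fell, where 1.9% of all genes did. Eef1a1 was 2.14-fold higher in epiblast (2.06 to 2.22), 1.98-fold in endoderm (1.92 to 2.04) and 2.29-fold in trophoblast (2.18 to 2.40). Eif2s2 fell in epiblast and endoderm, to 681 CPM in E5.5 epiblast against 2141 in Reactivated, and to 415 CPM in E5.5 endoderm against 1156 in Reactivated. Eif4g3 rose in epiblast to 117 CPM in E5.5, against 31.2 in Reactivated. Eif2d, a factor that can place initiator tRNA without eIF2, rose in trophoblast to 102.4 CPM in E5.5, against 38.2 in Reactivated. Eif3m rose in epiblast to 163 CPM in E5.5, against 74.9 in Reactivated, and Eif3a rose there too, a call that TMM removes. Eif2b5 fell in epiblast to 104 CPM in E5.5, against 199 in Reactivated. Eef1e1, which belongs to the complex of tRNA synthetases, rose in endoderm to 148 CPM in E5.5, against 85.7 in Reactivated. Eif4enif1 rose in trophoblast to 59.6 CPM in E5.5, against 20.1 in Reactivated. Eif6 had 220 CPM in E5.5 and 307 in Reactivated trophoblast, which was called lower with TMM and with thinned cells but not as reported.

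Between lineages of a library, 7 of 54 measured factors differed at least 2-fold from the highest to the lowest lineage in EDG7.5 and 12 of 55 in EDG9.5, then 8 of 53 in Reactivated and 13 of 55 in E5.5. Of all genes, 56.6% did so in EDG7.5 and 56.6% in EDG9.5, then 57.9% in Reactivated and 54.4% in E5.5. Levels were not matched between the factors and all genes, and few UMIs widen such ratios. Over all 12 sums of a lineage in a library, 47 factors had at least 50 UMIs in each, and their highest level was 1.68 to 6.37 times the lowest, with a median of 2.89.

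Of 15 measured regulators of initiation in Reactivated over EDG9.5, 2 rose and 6 fell in epiblast, 2 rose and 5 fell in endoderm, and 4 rose and 5 fell in trophoblast. Of all genes 19.4%, 16.9% and 23.6% rose and 36.8%, 28.8% and 28.2% fell, so the share of regulators that fell was close to that of all genes. Pdcd4, which holds eIF4A inactive, fell to 31.2 CPM in Reactivated epiblast against 272 in EDG9.5, to 72.04 in Reactivated endoderm against 915 in EDG9.5, and to 18.1 in Reactivated trophoblast against 601 in EDG9.5. It had the lowest ratio of the list in every lineage. Of the eIF4E-binding proteins, Eif4ebp1 rose in epiblast, at 392 CPM in Reactivated against 150 in EDG9.5, and in trophoblast, while Eif4ebp2 fell in all 3 lineages. Ppp1r15b, a subunit of the eIF2 phosphatase, fell in all 3 lineages too.

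Of 11 termination, poly(A) and release genes, 4 rose and 1 fell in epiblast, 1 rose and 3 fell in endoderm, and 3 rose and 1 fell in trophoblast, to be read against the same shares of all genes, 19.4%, 16.9% and 23.6% higher and 36.8%, 28.8% and 28.2% lower. Gspt1, the release factor eRF3, rose in every lineage, and Paip1, a partner of the poly(A)-binding protein, fell in every lineage. TMM kept the Paip1 calls, while it raises every ratio here and so could not remove the Gspt1 calls. Of the mitochondrial translation factors, 1 of 5 measured rose and 1 fell in epiblast, 0 of 8 rose and 1 fell in endoderm, and 2 of 7 rose and 0 fell in trophoblast.

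Depth and RNA make-up moved with these differences, and their part was not tested. The median share of mitochondrially encoded UMIs per cell was 6.35% in Reactivated and 4.39% in EDG9.5 epiblast, 6.13% in Reactivated and 7.62% in EDG9.5 endoderm, and 6.44% in Reactivated and 8.72% in EDG9.5 trophoblast. Ribosomal protein genes took a median of 11.98% of UMIs per cell in Reactivated and 10.1% in EDG9.5 epiblast, 10.1% in Reactivated and 12.2% in EDG9.5 endoderm, and 13.6% in Reactivated and 13.3% in EDG9.5 trophoblast. With cells thinned to 1000 UMIs, the Eif4a1 share was 89.6% in Reactivated and 52.2% in EDG9.5 epiblast.

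**Figure D5:**
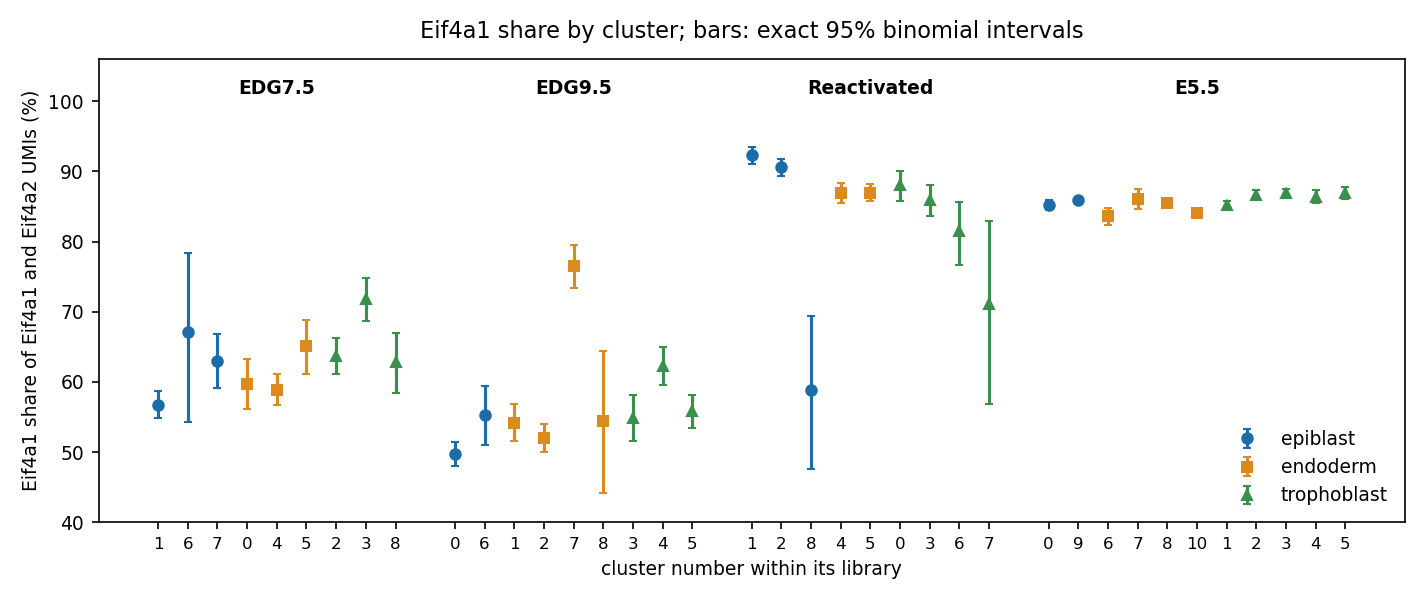
Eif4a1 share of the UMIs of Eif4a1 and Eif4a2 (%, vertical axis, from 40) in every cluster of the 4 libraries, with exact 95% binomial intervals; circles are epiblast, squares endoderm and triangles trophoblast. Reactivated and E5.5 clusters lie at 81.5% or more, apart from Reactivated clusters 7 and 8, and those of EDG7.5 and EDG9.5 between 49.7% and 71.9%, apart from endoderm cluster 7 of EDG9.5 at 76.5%.

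Within a lineage the clusters differed, though cells of a cluster are not replicates and no test was made. In EDG9.5 endoderm, cluster 7 with 94 cells had an Eif4a1 share of 76.5% (73.3 to 79.4), against 52.0% to 54.5% in the other 3 endoderm clusters. The same cluster had 921 CPM of Eif5a, against 535 to 790 CPM in the other 3, and 299 CPM of Mki67, a gene of dividing cells, against 6.14 to 58.1 CPM. Its median depth was 6911.5 UMIs, against 1800.5 to 4558, and Spink3, Cubn and S100g were among its leading genes. Clusters with more Mki67 had lower shares than cluster 7, though above those of larger clusters of their own lineage and library. Epiblast cluster 6 of EDG9.5 had 605 CPM of Mki67 and 55.3%, against 49.7% in cluster 0. Endoderm cluster 5 of EDG7.5 had 591 CPM and 65.1%, against 59.7% and 58.9% in clusters 0 and 4. Epiblast cluster 7 of EDG7.5 had 435 CPM and 63.0%, against 56.8% in cluster 1. Epiblast cluster 6 of EDG7.5, with 21 cells, had 67.2% (54.3 to 78.4). Whether the share goes with division or with depth was not tested. In Reactivated, epiblast cluster 8 held 9 cells with a median of 5051 UMIs, against 14324 and 11209 in clusters 1 and 2. It had a share of 58.8% (47.6 to 69.4), against 92.3% and 90.6% there, and 541 CPM of Eif5a, against 1961 and 2123 CPM. Its Eef1a1 level of 998 CPM, by contrast, lay near the 1035 and 1058 CPM of clusters 1 and 2, and Eif2ak3 had 0 of 48085 UMIs there, too few to tell a difference. Reactivated trophoblast cluster 7 held 8 cells with a median of 5353.5 UMIs, against 9154 to 13713 in the other 3 trophoblast clusters. It had a share of 71.2% (56.9 to 82.9) and 128 CPM of Eif2ak3 from 6 UMIs, against 5.98 to 11.8 CPM in those 3. Its Eef1a1 level was 1451 CPM, against 813 to 884 CPM in those 3 clusters and 2552 CPM in EDG9.5 trophoblast.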

How the data were processed

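The 4 deposited tables hold whole-number counts per gene and cell barcode, made by the authors on mm10, where the submitters' processing notes name STAR 2.7.1a, featureCounts 1.6.4 of Subread, and UMI-tools 1.0.1. The counts were read as UMIs, molecules counted once after amplification. Not given in the sources used here are the annotation, the strand setting, the handling of reads that fit several places and the barcode rule.

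Cells with at least 1000 UMIs, 500 genes and under 25% mitochondrially encoded UMIs were kept, and doublets called by Scrublet in scanpy 1.11.5 were removed (12 for EDG7.5, 6 for EDG9.5, 1 for Reactivated, 279 for E5.5). Each library was clustered alone (2000 variable genes, 30 components, 15 neighbours, Leiden resolution 1) and clusters named from marker lists; these names are rebuilt, not the authors'. Markers among leading genes were counted over all genes and over genes found in at least 10% of cells. The second count was chosen after values were seen. It was made because 1 or 2 cells held all UMIs of some leading genes of EDG7.5 cluster 3. UMIs were summed per lineage and library and given as CPM. Intervals are exact at 95%: Poisson for levels, conditional binomial for ratios, Clopper-Pearson for shares. Cells are not replicates, so nothing was tested.

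Described by name were the 3 highest and the 3 lowest factors by ratio in each comparison and lineage, paralogs, and others by role. The factors and lists were chosen with earlier results of these data known. The ratios, calls and ratio intervals were tested on simulated Poisson counts that held no variation between libraries beyond the changes set. Clustering, naming and TMM scaling were not simulated. Alternatives were TMM scaling (edgeR 4.0.16), totals that leave out ribosomal protein and mitochondrially encoded genes, other cell filters, other resolutions, thinned cells, means over cells, and other added CPM, UMI minimums and folds. Trophoblast without EDG7.5 cluster 3 was added after the values were seen. Exon overlaps were read from GENCODE M21 on the same build.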

Additional observations from a re-analysis of the deposited data

Results flagged for a closer look

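For 3 factors the lineages moved in opposite directions in the same comparison, each past 1.5-fold. With 1 library per stage the difference between lineages was not tested. Eef2k had log2 ratios of -1.59 in epiblast, -0.83 in endoderm and 1.69 in trophoblast for Reactivated over EDG9.5. Eif2s2 had -0.75 in endoderm and 0.85 in trophoblast for the same libraries. Eif1b, a paralog of the start codon factor Eif1, had 0.72 in epiblast and -0.86 in endoderm for E5.5 over Reactivated. Its endoderm ratio was 0.68 for Reactivated over EDG9.5, which shares the Reactivated library. With TMM, Eef2k kept its lower calls in epiblast and endoderm, while Eif2s2 endoderm (-0.52) and Eif1b epiblast (0.56) fell short of 1.5-fold. TMM moves the trophoblast rises of Eef2k and Eif2s2 and the endoderm fall of Eif1b further the same way, so it could not remove them. Exons of another gene overlap 12.7% of the Eif1b exon bases, so its reads are uncertain.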

How the results depend on the processing

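No paired analysis was possible because each stage has 1 library. Direct limits are that stage and library cannot be told apart, that the Reactivated cells are fewest and deepest, and that low members such as Eif5a2 rest on a few UMIs. Of 762 values of named factors under the alternatives, 85 moved beyond counting error and 0 turned round. These were the 3 highest and 3 lowest ratios of each comparison and lineage, so a change of sign was unlikely from the start. The looser filter of 500 UMIs and 250 genes left the numbers of cells unchanged. For all values below the cause was not tested. With TMM, the median log2 ratio was 0.018 in endoderm of EDG9.5 over EDG7.5 (-0.02 as reported), 0.50 in endoderm of Reactivated over EDG9.5, and 0.049 in epiblast and 0.068 in trophoblast of E5.5 over Reactivated. TMM gave 5 higher and 0 lower calls in trophoblast of EDG9.5 over EDG7.5, where it called 1.92% of all genes higher and 1.26% lower. For Reactivated over EDG9.5 it gave 5 lower in epiblast and, in endoderm, 24 higher and 3 lower. For E5.5 over Reactivated it gave 6 higher and 5 lower in epiblast and 7 higher and 3 lower in trophoblast. For both, the shares of all genes with TMM are given above. Without ribosomal protein and mitochondrially encoded genes in the totals, the endoderm median of EDG9.5 over EDG7.5 was 0.0018, trophoblast there had 5 higher and 0 lower, and trophoblast of E5.5 over Reactivated had 2 lower. Without doublet removal the endoderm median of E5.5 over Reactivated was 0.00085, against -0.00057 as reported. A mitochondrial limit of 10% gave 1 lower call in trophoblast of E5.5 over Reactivated.

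With cells thinned to 1000 UMIs, EDG9.5 over EDG7.5 had 2 lower calls in epiblast, a median of 0.030 and 1 lower in endoderm, and 6 higher and 2 lower in trophoblast, and E5.5 over Reactivated had 1 lower in trophoblast. Thinned Eif4a1 shares were 52.2% in EDG9.5 and 89.6% in Reactivated epiblast with 85.1% in E5.5, and 53.5%, 89.1% and 83.8% in endoderm, and 63.3% in EDG7.5 and 56.0% in EDG9.5 trophoblast. As means over cells the share was 89.4% in Reactivated epiblast and 54.8% in EDG9.5 endoderm, and without EDG7.5 cluster 3 it was 63.4% in EDG7.5 trophoblast. With 1 CPM added, EDG9.5 over EDG7.5 had 2 higher and 1 lower in epiblast, 1 higher in endoderm and 2 lower in trophoblast, and E5.5 over Reactivated had 5 higher in endoderm and 1 lower in trophoblast. With 50 CPM added, Reactivated over EDG9.5 had 5 lower in epiblast and 8 higher in endoderm, and E5.5 over Reactivated had 7 higher in epiblast and 1 higher and 2 lower in endoderm. With at least 200 UMIs, 4 fell in epiblast of Reactivated over EDG9.5. At 2-fold, EDG9.5 over EDG7.5 had 0 higher in epiblast and 0 higher and 0 lower in trophoblast. At 2-fold, Reactivated over EDG9.5 had 12 higher and 5 lower in epiblast, 2 higher and 2 lower in endoderm and 14 higher in trophoblast. At 2-fold, E5.5 over Reactivated had 4 higher and 1 lower in epiblast, 0 higher and 1 lower in endoderm and 4 higher in trophoblast. Eif2ak3 in Reactivated over EDG9.5 trophoblast was -2.39 thinned, -4.10 with 1 CPM added and -1.99 with 50 CPM added.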
